A study of Mus musculus with 10 samples.

Results

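Receptors of the tumor necrosis factor (TNF) superfamily were followed in regulatory T (Treg) cells after loss of the Foxp3 protein. The set was 10 receptor genes known to be used by T cells (Tnfrsf4, Tnfrsf18, Tnfrsf9, Tnfrsf1a, Tnfrsf1b, Tnfrsf25, Tnfrsf14, Cd27, Fas and Tnfrsf26), picked by name from the 55809 gene rows of the count tables. All 10 were found, and all 10 passed the filter on low counts. RNA-seq libraries came from Treg cells of mouse spleen and lymph nodes. Every mouse carried the Foxp3-AID allele, in which Foxp3 is fused to an auxin-inducible degron (AID) and the same locus encodes the ZsGreen reporter and a Cre recombinase. The 6 R26-TIR1(F74G) libraries came from mice that also carry, at ROSA26, the plant E3 ligase TIR1(F74G) with an mCherry reporter behind a loxP-flanked STOP cassette, so that the ligase is made where Foxp3-driven Cre has acted. The 4 R26-WT libraries came from mice with an unmodified ROSA26 locus. Both groups received 5-ph-IAA, the auxin analog that brings the degron to TIR1(F74G), for 14 days, so that Foxp3 protein is degraded in the first group and kept in the second. The labels give neither the age nor the sex of the mice, and not whether they carried a second, unmodified Foxp3 allele. The study describes degradation of this length in hemizygous males, both newborn and adult, which hold no Treg cells with unmodified Foxp3. In such mice, a change within the sorted cells and a change in the rest of the animal cannot be told apart. The general sorting scheme in the study's methods takes ZsGreen+ among TCRb+ CD4+ cells, and mCherry+ as well in R26-TIR1(F74G), and where it was used the gate and the genotype cannot be told apart. Some of the study's bulk libraries held resting or activated Treg cells sorted apart, and the labels here say only Treg.

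TNF receptor superfamily members are cell surface proteins that bind trimeric ligands of the TNF family. Most of them recruit TRAF adaptors and ubiquitin ligases to their cytoplasmic tails and feed into the canonical and alternative NF-kappaB pathways and into MAP kinases, while a subgroup with a death domain can assemble complexes that activate caspases. Treg cells are known for high surface levels of several members that conventional T cells show mainly after stimulation, among them GITR (Tnfrsf18), OX40 (Tnfrsf4), 4-1BB (Tnfrsf9) and TNFR2 (Tnfrsf1b), and signals through these receptors support their survival and expansion.

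Libraries held 24158699 to 54795718 counted read pairs. Values below are normalized counts, which are read-pair counts divided by the DESeq2 size factor of the library. Means are given ± SD over the libraries of a group (n = 4 for R26-WT, n = 6 for R26-TIR1(F74G)). Changes are log2 fold changes of R26-TIR1(F74G) relative to R26-WT with their standard error (SE), and a gene was called at a DESeq2 p under 0.05 after Benjamini-Hochberg adjustment over all 16363 genes tested. At that threshold 284 genes were called, 229 with higher and 55 with lower counts after degradation. The second principal component of the libraries separated the genotypes, with scores of 4.28 to 9.49 in R26-WT and −14.9 to 2.45 in R26-TIR1(F74G). The first component did not follow genotype. R26-WT replicates 3 and 4 lay at one end, with scores of 16.9 and 15.5, and R26-TIR1(F74G) replicate 7 lay at the other, with −24.6, against −9.12 to 6.88 for the other 7 libraries. Receptor values, and some pathway values, that moved without these 3 libraries are given with and without them. Leaving them out was a choice made after the values were seen, and it leaves 2 R26-WT libraries. The 8 Treg and CD4 T cell identity genes were all expressed, with a summed level of 4574 to 4969 CPM (counts scaled to a common library total) in R26-WT and 4491 to 4781 in R26-TIR1(F74G). DESeq2, edgeR and limma voom called none of the 8, while DESeq2 called Il2ra lower (−0.40) and Cd4 higher (0.20) with 1 surrogate variable, an estimate of unmodelled variation, as a covariate, and Il2ra lower (−0.67) without the 3 libraries. Defining myeloid and erythroid markers were close to absent, with 6 of 8 and 5 of 6 genes below a mean count of 10 and summed levels of at most 1.07 and 0.579 CPM. Among B cell markers, 5 of 8 were below that mean, including Ms4a1, and the summed level was 19.5 to 31.7 CPM in R26-WT and 17.2 to 34.3 in R26-TIR1(F74G), with Cd22 called higher by DESeq2 but not by edgeR, by limma voom, or without the 3 libraries. In some fits that left out 1 library, and with the gene length trend removed, DESeq2 gave Cd22 no p. Among plasma cell markers, 3 of 5 (Sdc1, Jchain and Mzb1) were below a mean count of 10. Their summed level of 202 to 247 and 211 to 276 CPM was mostly Xbp1, with 9665 ± 920 and 9662 ± 1188 normalized counts. For CD8 and NK cell markers the sum was 58.1 to 76.0 and 49.96 to 74.6 CPM, with Eomes called higher by all 3 tools.

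The receptors covered a wide range of abundance, and their order by mean level was the same in both groups. On a scale per length, FPKM, in which read pairs are divided by exon length and library total, Tnfrsf4 was the most abundant in R26-WT at 294.7 ± 63.3. Cd27 followed at 274.4 ± 54.8 and Tnfrsf18 at 238.1 ± 61.6, and the FPKM ranges of neighbours among these 3 overlapped. Below them came Tnfrsf25 at 100.5 ± 10.6 FPKM and Tnfrsf9 at 65.0 ± 5.13 FPKM, each with a range of its own. Fas (48.9 ± 5.41 FPKM) and Tnfrsf1b (39.6 ± 15.3 FPKM) overlapped each other, and Tnfrsf1a (21.2 ± 3.83 FPKM), Tnfrsf14 (14.3 ± 2.08 FPKM) and Tnfrsf26 (10.8 ± 1.05 FPKM) formed an overlapping chain at the low end. In R26-TIR1(F74G) the same order ran from Tnfrsf4 at 233.7 ± 33.9 FPKM to Tnfrsf26 at 12.4 ± 1.24 FPKM. There the range of Tnfrsf9 (46.7 ± 4.39 FPKM) also overlapped that of Fas (43.1 ± 8.54 FPKM). For Tnfrsf18, read pairs over the 27.2% of exon bases that an opposite-strand gene overlaps were not counted, while the full exon length was used. Its FPKM is therefore too low by an unknown amount in both groups, and its place below Tnfrsf4 and Cd27 is not settled.

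**Figure D1:**
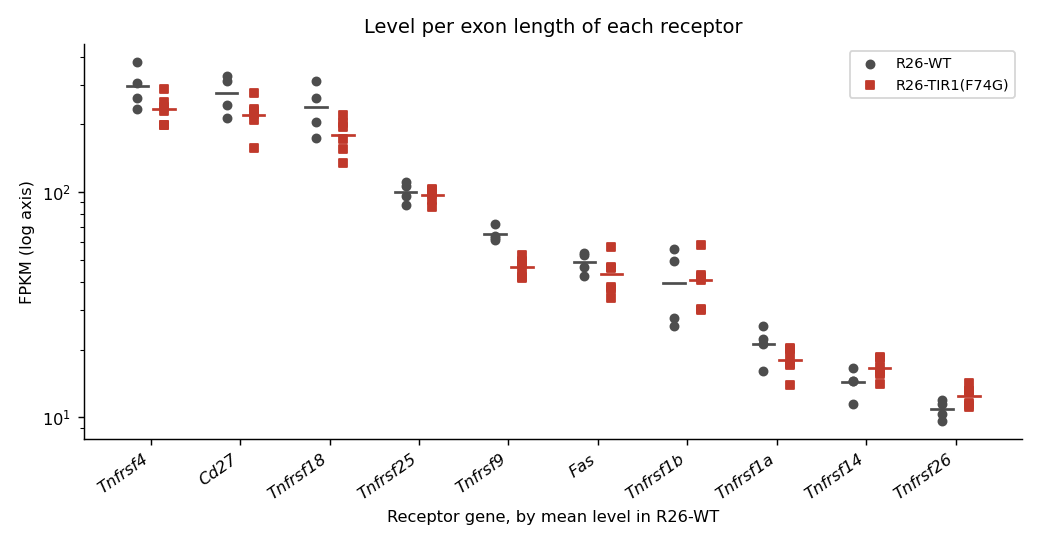
Level of each receptor in FPKM on a log axis, with 1 point per library (grey circles, 4 R26-WT; red squares, 6 R26-TIR1(F74G)) and a bar at each group mean. Tnfrsf4, Cd27 and Tnfrsf18 sit together at the top, the order of the means is the same in both groups, and the 2 sets of points separate for Tnfrsf9. The level of Tnfrsf18 is too low, because part of its exon bases could not be counted.

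Of the 10 receptors, DESeq2 called 1, Tnfrsf9, as lower in R26-TIR1(F74G) and none as higher, where 1.74% of all tested genes were called, 0.336% lower and 1.4% higher. An unadjusted p under 0.05 was reached by 3 of the 10 (Tnfrsf9, Tnfrsf18 and Tnfrsf4), against 6.86% of all tested genes. The log2 fold change was below 0 for 7 of the 10, against 49.9% of all tested genes, and their median was −0.23, against 0.00063 over all tested genes. Without the 3 libraries at the ends of the first component, 6 of the 10 were below 0, against 48.3% of all tested genes, and the median was −0.013, against 0.013. In bulk RNA, fewer cells that express a receptor and less of its RNA per cell cannot be told apart.

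**Figure D2:**
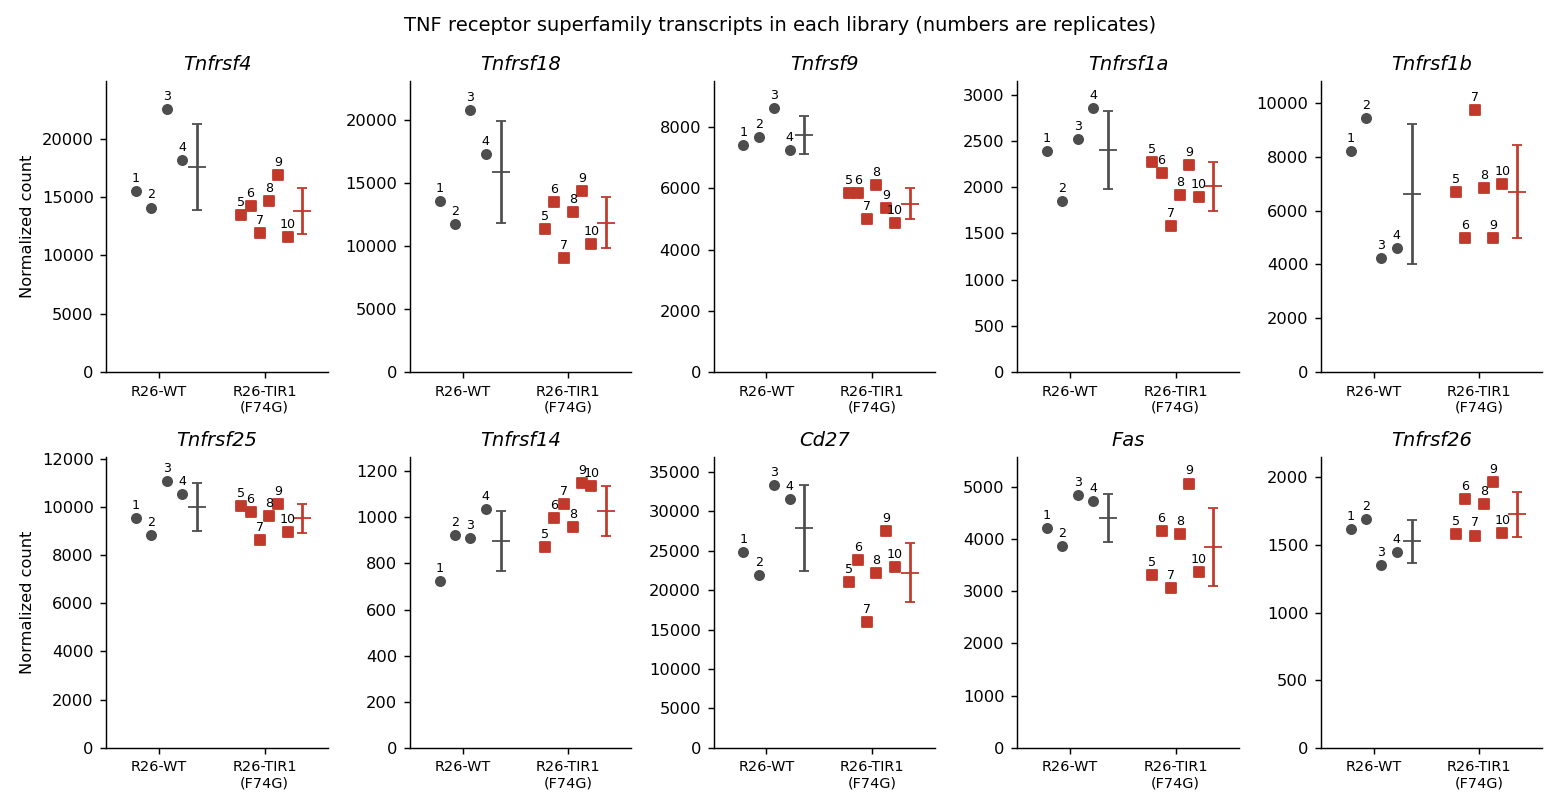
Normalized counts of each receptor in the 4 R26-WT libraries (grey circles) and the 6 R26-TIR1(F74G) libraries (red squares), with the replicate number above each point and the group mean ± SD beside it. The groups separate for Tnfrsf9 and overlap for the other 9 receptors, and R26-WT replicates 3 and 4 are the high points for Tnfrsf4, Tnfrsf18 and Cd27 and the low points for Tnfrsf1b.

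Tnfrsf9 (chromosome 4, 150999019 to 151030559, plus strand, GRCm39) encodes 4-1BB, also named CD137, a costimulatory receptor that signals through TRAF1 and TRAF2. Its normalized counts in R26-WT replicates 1 to 4 were 7410, 7670, 8610 and 7247. In R26-TIR1(F74G) replicates 5 to 10 they were 5831, 5842, 5001, 6095, 5352 and 4861. Every library of the second group lay below every library of the first, which held for 0.801% of all tested genes in this direction. The mean fell by 28.9%, from 7734 ± 609 to 5497 ± 502, a log2 fold change of −0.49 (SE 0.11, 95% interval −0.70 to −0.29) with an adjusted p of 0.000565 by DESeq2. A two-sided exact permutation test of its log2 values over the 210 arrangements of the genotype labels gave p = 0.00476, the smallest that this design allows. The call held when each of the 10 libraries was left out in turn, with log2 fold changes from −0.52 to −0.44, and without the 3 libraries at the ends of the first component (−0.43, SE 0.12, adjusted p 0.0188 by DESeq2). It did not hold with 2 other tests across all genes, the edgeR quasi-likelihood test (−0.50, adjusted p 0.0510) and limma voom (−0.47, adjusted p 0.0564), which called 61 (0.373%) and 80 (0.489%) of all tested genes and 0 of the 10 receptors.

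The promoter windows of Tnfrsf9 are shown because it was the receptor that changed, beside those of Tnfrsf4 and Tnfrsf18, neighbouring genes on the same chromosome that did not pass the test. Each window runs from 250 bases before an annotated RefSeq start site to 50 bases after it. The table is on GRCm38.p6, and each window was placed by exact match at 1 position on GRCm39. Tnfrsf9 has 2 such start sites, both within its annotated span in the count tables, as is that of Tnfrsf18, while the Tnfrsf4 window ends before its annotated span begins. Lower case is used throughout, and capitals mark matches to either of 2 motifs searched on both strands, an NF-kappaB form (GGG, any 5 bases, then CC) and the AP-1 form TGANTCA.
Tnfrsf9 upstream window, chr4:151004362-151004661, plus strand: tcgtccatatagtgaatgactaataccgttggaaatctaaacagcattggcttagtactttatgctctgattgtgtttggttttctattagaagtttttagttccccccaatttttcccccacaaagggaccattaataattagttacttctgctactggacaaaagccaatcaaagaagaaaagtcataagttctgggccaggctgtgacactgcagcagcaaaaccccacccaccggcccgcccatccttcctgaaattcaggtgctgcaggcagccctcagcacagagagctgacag
Tnfrsf9 downstream window, chr4:151012206-151012505, plus strand: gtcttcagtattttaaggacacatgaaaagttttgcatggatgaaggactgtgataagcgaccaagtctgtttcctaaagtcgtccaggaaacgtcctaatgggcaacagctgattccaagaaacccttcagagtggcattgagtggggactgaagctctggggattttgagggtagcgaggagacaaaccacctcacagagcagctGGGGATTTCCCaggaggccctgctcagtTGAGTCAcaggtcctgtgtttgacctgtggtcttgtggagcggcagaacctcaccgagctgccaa
Tnfrsf4 window, chr4:156097902-156098201, plus strand: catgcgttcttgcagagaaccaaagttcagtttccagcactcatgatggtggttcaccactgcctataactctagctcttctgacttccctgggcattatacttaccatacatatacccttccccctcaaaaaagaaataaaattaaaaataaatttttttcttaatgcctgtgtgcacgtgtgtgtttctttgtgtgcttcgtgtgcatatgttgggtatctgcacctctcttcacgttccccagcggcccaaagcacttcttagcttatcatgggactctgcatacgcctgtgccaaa
Tnfrsf18 window, chr4:156110529-156110828, plus strand: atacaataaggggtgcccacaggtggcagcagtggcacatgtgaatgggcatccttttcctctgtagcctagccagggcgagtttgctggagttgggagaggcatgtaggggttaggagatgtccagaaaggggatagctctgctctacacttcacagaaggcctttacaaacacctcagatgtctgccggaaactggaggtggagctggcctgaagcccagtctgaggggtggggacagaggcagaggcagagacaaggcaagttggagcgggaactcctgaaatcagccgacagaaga
The downstream Tnfrsf9 window holds a pair of overlapping NF-kappaB matches that begin 43 and 42 bases before the start site and an AP-1 match that begins 15 bases before it. The upstream Tnfrsf9 window and the windows of Tnfrsf4 and Tnfrsf18 hold neither. A window was given for 9 of the 10 receptors, 11 windows in all, and 8 of the 11 hold the NF-kappaB form, which 50.8% of all 32851 promoter windows of this length hold. The AP-1 form stands in 2 of the 11 (Tnfrsf9 and Fas), against 7.81% of all windows, and both forms together stand in the same 2 of the 11, against 3.19% of all windows. The forkhead form TGTTTAC, searched for because Foxp3 is a forkhead protein, stands in none of the 11, against 3.65% of all windows. A match is a run of letters and not a measured binding site.

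Beside Tnfrsf9, the summed level of stress genes was lower and that of proliferation genes higher in R26-TIR1(F74G). The sums of resting T cell genes overlapped between genotypes, and those of activated Treg genes did so only between 311 and 312 CPM. The 9 stress and dissociation genes, a list of genes that cells switch on when they are handled, had a summed level of 2309 to 3192 CPM in R26-WT and 1619 to 2243 CPM in R26-TIR1(F74G), ranges that do not overlap, and DESeq2 called 3 of the 9 lower. These were the AP-1 subunits Jun (log2 fold change −0.71, SE 0.16, adjusted p 0.00109 by DESeq2), Junb (−0.70, SE 0.17, adjusted p 0.00279 by DESeq2) and Fos (−0.88, SE 0.26, adjusted p 0.0493 by DESeq2). Of these, edgeR called Jun alone (adjusted p 0.0473) and limma voom Junb alone (adjusted p 0.0396). Without R26-WT replicate 1, which held 7013 normalized counts of Fos against 2703 to 3532 in the other R26-WT libraries, DESeq2 called Jun alone (−0.54, adjusted p 0.00621), and among the fits that leave out 1 library Fos was called only without R26-WT replicate 4 or R26-TIR1(F74G) replicate 5. The list did not move one way, since 4 of the 9 had log2 fold changes above 0, none of them called, and the median was −0.039. These 4 were Atf3 (1.19, SE 0.61), the heat shock genes Hspa1a (0.74, SE 1.04) and Hspa1b (0.75, SE 0.90), and Egr1 (0.063, SE 0.10). The 13 proliferation genes had a summed level of 145 to 189 CPM in R26-WT and 257 to 398 CPM in R26-TIR1(F74G), and 11 of the 13 were called higher by DESeq2, 5 by edgeR, 6 by limma voom and 8 by DESeq2 without the 3 libraries. The 10 activated Treg genes had a summed level of 295.0 to 312 CPM and 311 to 538 CPM. Of the 10, 8 had log2 fold changes above 0, with a median of 0.28 over the list. Tigit alone was called higher by DESeq2. It was not called by edgeR, by limma voom, with the surrogate variable, without R26-WT replicate 1, 3 or 4, or without the 3 libraries. For the 8 resting T cell genes the sums were 8783 to 9231 CPM and 8592 to 9644 CPM, and Tcf7 was called higher by DESeq2 (0.43, adjusted p 0.0257) but not by edgeR, by limma voom, without the 3 libraries, or without any 1 of R26-WT replicates 3 and 4 and R26-TIR1(F74G) replicates 5, 6, 7, 8 and 10. Their part in the Tnfrsf9 result was not tested.

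The genes whose log2 values were most like those of Tnfrsf9 over the 10 libraries, among 12444 genes with a mean normalized count of at least 50, were Frat2, a regulator of Wnt signalling (Pearson r 0.94), Sdc4, the proteoglycan syndecan-4 (r 0.93), and Irs2, an insulin receptor substrate (r 0.93). All 3 were called lower by DESeq2, with log2 fold changes of −0.40 (SE 0.088) for Frat2, −1.21 (SE 0.20) for Sdc4 and −0.61 (SE 0.11) for Irs2. Each r spans both genotypes, so that the difference between the groups enters it, and the points share library and depth.

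Tnfrsf4 and Tnfrsf18 encode OX40 and GITR, costimulatory receptors that Treg cells display at rest. Tnfrsf4 (chromosome 4, 156098300 to 156101069, plus strand) had 15544, 14090.1, 22528 and 18139 normalized counts in R26-WT replicates 1 to 4. In R26-TIR1(F74G) its lowest, median and highest values were 11570.2, 13861 and 16842. Replicates 3 and 4 of R26-WT stood above all other libraries, while replicates 1 and 2 lay inside the range of R26-TIR1(F74G), and R26-TIR1(F74G) replicates 5, 7 and 10 lay below every R26-WT library. The means were 17575 ± 3702 and 13784 ± 1940.0, and the log2 fold change of −0.35 (SE 0.16, 95% interval −0.67 to −0.032) did not pass the test (adjusted p 0.583 by DESeq2).

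Tnfrsf18 (chromosome 4, 156110621 to 156113352, plus strand) showed the same arrangement of libraries. Its normalized counts were 13582, 11717, 20789 and 17303 in R26-WT replicates 1 to 4, and the lowest, median and highest in R26-TIR1(F74G) were 9010, 12049 and 14342. Again R26-WT replicates 3 and 4 lay above all other libraries, and R26-TIR1(F74G) replicates 5, 7 and 10 lay below every R26-WT library. The means were 15848 ± 4030 and 11854 ± 2043, with a log2 fold change of −0.42 (SE 0.19, 95% interval −0.79 to −0.047, adjusted p 0.541 by DESeq2). The opposite-strand gene Gm16008 overlaps 27.2% of the exon bases of Tnfrsf18, and since the counts were unstranded, read pairs from that stretch are left out of its value. Exact permutation tests gave p = 0.0714 for Tnfrsf4 and p = 0.0810 for Tnfrsf18, and without R26-WT replicate 3 alone the log2 fold changes were −0.21 and −0.26.

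The 2 genes lie 9.55 kb apart with 2 annotated genes between them, and their transcripts moved together across libraries. Tnfrsf18 was the gene most like Tnfrsf4 of all 12444 compared (Pearson r 0.97 over 10 libraries). The genes most like Tnfrsf18 were Alkbh6 (r 0.99), Rps27 (r 0.98) and Oaz2 (r 0.98), none of them called. The ratio of normalized counts of Tnfrsf4 to Tnfrsf18 stayed between 1.05 and 1.32 in all 10 libraries, with 1.12 ± 0.068 in R26-WT and 1.17 ± 0.087 in R26-TIR1(F74G), and its group difference was smaller than the spread between libraries (exact permutation p = 0.362).

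**Figure D3:**
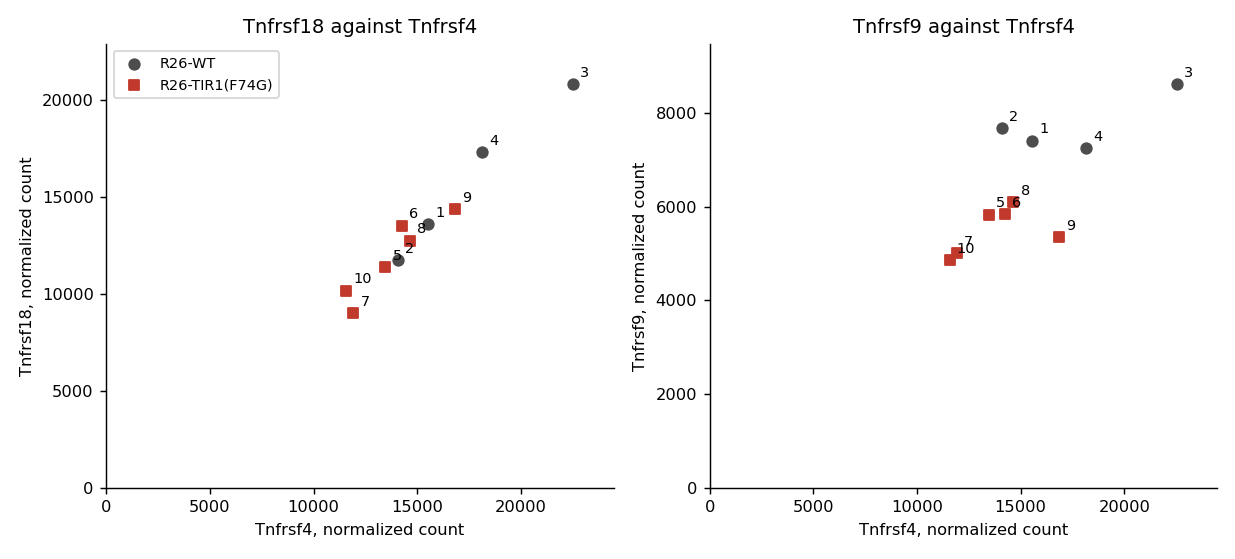
Normalized counts of Tnfrsf18 (left) and Tnfrsf9 (right) against those of Tnfrsf4, with 1 point per library (grey circles, R26-WT; red squares, R26-TIR1(F74G)) and replicate numbers beside the points. Both genotypes lie along 1 line on the left, whereas on the right all 4 R26-WT points lie above all 6 R26-TIR1(F74G) points, including R26-WT replicates 1 and 2, whose Tnfrsf4 values are inside the range of R26-TIR1(F74G).

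Cd27, the receptor for CD70 (chromosome 6, 125209585 to 125213973, minus strand), followed the same libraries. It had 24791, 21924, 33292 and 31629 normalized counts in R26-WT replicates 1 to 4 and 16019, 22513 and 27472 as the lowest, median and highest in R26-TIR1(F74G). R26-WT replicates 3 and 4 were again the only ones above the range of the other group, and R26-TIR1(F74G) replicates 5 and 7 lay below every R26-WT library. The log2 fold change was −0.33 (SE 0.17, 95% interval −0.67 to 0.010, adjusted p 0.784 by DESeq2). Cd27 had a Pearson r of 0.94 with Tnfrsf18 and 0.88 with Tnfrsf4 over the 10 libraries, although it lies on another chromosome.

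The differences of these 3 abundant receptors depended on how the spread along the first component was treated. Without R26-WT replicates 3 and 4 and R26-TIR1(F74G) replicate 7, the log2 fold changes were −0.064 for Tnfrsf4, −0.025 for Tnfrsf18 and 0.0084 for Cd27, with adjusted p of 0.809, 0.936 and 0.975 by DESeq2. Those R26-WT replicates were the highest for all 3 genes, and R26-TIR1(F74G) replicate 7 was the lowest for Tnfrsf18 and Cd27. Leaving them out therefore had to move these differences toward 0. With all 10 libraries and 1 surrogate variable in DESeq2, the log2 fold changes were −0.26, −0.30 and −0.23, and all 3 were called lower (adjusted p 0.0349, 0.00108 and 4.82e-05), beside Tnfrsf9 (−0.48, adjusted p 9.90e-08). That model called 743 genes in all, or 4.54% of those tested, with 1.68% lower, and the fit without the 3 libraries called 538, or 3.32%, with 2.12% lower. Tnfrsf9 was the receptor that DESeq2 called under both treatments.

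**Figure D4:**
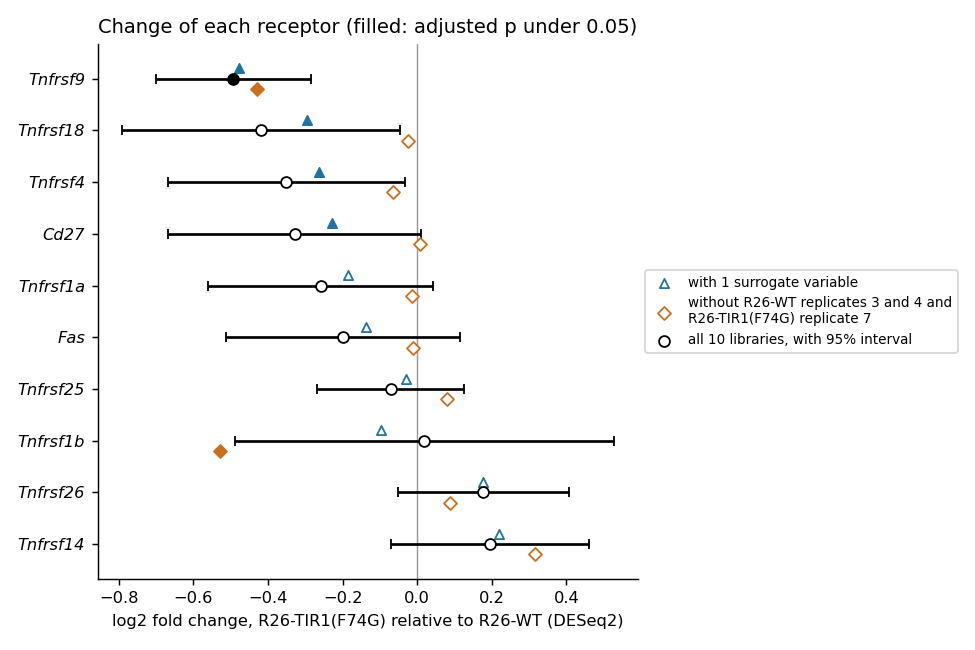
DESeq2 log2 fold change of each receptor with all 10 libraries (circles with 95% intervals), with 1 surrogate variable (triangles) and without R26-WT replicates 3 and 4 and R26-TIR1(F74G) replicate 7 (diamonds), where filled symbols have an adjusted p under 0.05. The 3 estimates for Tnfrsf9 lie between −0.49 and −0.43, those of Tnfrsf4, Tnfrsf18 and Cd27 move to near 0 without the 3 libraries, and those of Tnfrsf1b lie on both sides of 0.

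Tnfrsf1b (chromosome 4, 144940033 to 144973440, minus strand) encodes TNFR2, the TNF receptor that is prominent on Treg cells. It had the widest spread of the 10 on the log2 scale, with an SD of 0.58 within R26-WT. Its normalized counts in R26-WT replicates 1 to 4 were 8216, 9433, 4246 and 4602, and the lowest, median and highest in R26-TIR1(F74G) were 4972, 6785 and 9736. R26-WT replicates 3 and 4, high for OX40 and GITR, were the lowest of all libraries here, and R26-TIR1(F74G) replicate 7, lowest for GITR and CD27, was the highest. The Pearson r of Tnfrsf1b was −0.81 with Tnfrsf18, −0.83 with Cd27 and −0.89 with Tnfrsf25 over the 10 libraries. The log2 fold change was 0.019 (SE 0.26, 95% interval −0.49 to 0.53, adjusted p 0.99996 by DESeq2), an interval wide enough to hold changes close in size to that of Tnfrsf9 in either direction. Without the 3 libraries at the ends of the first component it was −0.53 (SE 0.17, adjusted p 0.0468 by DESeq2).

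A death domain is carried by Tnfrsf1a (TNFR1), Fas (CD95) and Tnfrsf25 (DR3, the receptor for TL1A), and none of the 3 was called. Tnfrsf1a (chromosome 6, 125326325 to 125339447, plus strand) had 2393, 1847, 2522 and 2851 normalized counts in R26-WT replicates 1 to 4 and 1579.5, 2034 and 2270.0 as the lowest, median and highest in R26-TIR1(F74G). The groups overlapped, with a log2 fold change of −0.26 (SE 0.15, adjusted p 0.950 by DESeq2) that was −0.015 without the 3 libraries and −0.16 without R26-WT replicate 4 alone. Fas (chromosome 19, 34268066 to 34305172, plus strand) ranged from 3855 to 4843 normalized counts in R26-WT and from 3057 to 5060.5 in R26-TIR1(F74G). Its highest and lowest libraries were both in R26-TIR1(F74G), and the log2 fold change was −0.20 (SE 0.16, adjusted p 0.99996 by DESeq2) and −0.011 without the 3 libraries. Tnfrsf25 (chromosome 4, 152200391 to 152204576, plus strand), whose ligand expands Treg cells, had the smallest SE of the 10 (0.10), with 9998 ± 999 normalized counts in R26-WT and 9521 ± 604 in R26-TIR1(F74G). Its log2 fold change of −0.071 had a 95% interval of −0.27 to 0.13, which does not reach the change of Tnfrsf9, and it was 0.080 without the 3 libraries and −0.12 to −0.018 without 1 library.

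Tnfrsf14 and Tnfrsf26, at the low end of the abundance range, had log2 fold changes above 0 that did not pass the test. Tnfrsf14 (chromosome 4, 155006390 to 155013020, minus strand) encodes HVEM, which binds LIGHT as well as BTLA and CD160. It had 899 ± 130 normalized counts in R26-WT and 1028 ± 107 in R26-TIR1(F74G), with ranges of 723 to 1036 and 872 to 1149 and a log2 fold change of 0.20 (SE 0.14, 95% interval −0.070 to 0.46). Tnfrsf26 (chromosome 7, 143161396 to 143182459, minus strand), a mouse receptor encoded beside decoy receptors for TRAIL, had 1526 ± 157 and 1726 ± 167 normalized counts and a log2 fold change of 0.18 (SE 0.12, 95% interval −0.052 to 0.41). The adjusted p was 0.99996 by DESeq2 for both, and without the 3 libraries the log2 fold changes were 0.31 and 0.087, neither called. Without R26-WT replicate 1 alone, that of Tnfrsf14 was 0.10.

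Whether Tnfrsf9 moved apart from the other receptors was tested on the ratio of its normalized count to theirs within each library, in 10 ratios that include Tnfrsf4 to Tnfrsf18 and were chosen after the values were seen. The others all have Tnfrsf9, already called lower, as numerator, so that a lower ratio is not separate evidence of its decrease. The ratio of Tnfrsf9 to Tnfrsf25 was 0.777 ± 0.074 in R26-WT and 0.577 ± 0.038 in R26-TIR1(F74G), a log2 difference of −0.43 (two-sided exact permutation p = 0.00476, 0.0238 adjusted over the ratios). Differences of the same kind were found against Tnfrsf26 (−0.67, exact permutation p = 0.00476, adjusted 0.0238) and Tnfrsf14 (−0.69, exact permutation p = 0.00952, adjusted 0.0317). Against Tnfrsf4, Tnfrsf18 and Cd27 the log2 differences were −0.16, −0.092 and −0.17 (exact permutation p = 0.281, 0.595 and 0.329), so that at this spread the decrease of Tnfrsf9 was not shown to differ from the lower means of those 3. The ratios to Tnfrsf1a, Tnfrsf1b and Fas gave exact permutation p of 0.143, 0.143 and 0.0619.

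The ligands were examined as transcripts of the same cells, and several of them, such as OX40L and 4-1BB ligand, are known mainly from antigen-presenting cells. Of 12 ligands and binding partners of the 10 receptors, 9 were expressed above a mean count of 10, and DESeq2 called 1, Tnfsf4, as higher. The median log2 fold change of the 9 was −0.12, and 0.12 without the 3 libraries. Tnfsf4 encodes OX40L, the ligand of OX40. Its normalized counts were 87.6, 106, 76.5 and 112 in R26-WT replicates 1 to 4 and 111, 149.9 and 190.0 as the lowest, median and highest in R26-TIR1(F74G). Of the 6 R26-TIR1(F74G) libraries, 5 lay above every R26-WT library and replicate 10 lay just inside their range. The mean was 95.5 ± 16.3 in R26-WT and 153 ± 28.2 in R26-TIR1(F74G), a log2 fold change of 0.68 (SE 0.20, adjusted p 0.0398 by DESeq2, exact permutation p = 0.0143). The call rested on 79 to 185 read pairs per library and was lost without R26-WT replicate 1 or 3 (adjusted p 0.208 and 0.259) and without R26-TIR1(F74G) replicate 5, 6, 7, 8 or 9 (adjusted p 0.0958, 0.129, 0.0771, 0.0655 and 0.108), with log2 fold changes of 0.59 to 0.71, and also with edgeR (adjusted p 0.245), limma voom (adjusted p 0.396) and without the 3 libraries at the ends of the first component (0.67, adjusted p 0.113). Tnfsf14, which encodes the HVEM ligand LIGHT, had 149 ± 25.0 and 241 ± 110.5 normalized counts (log2 fold change 0.69, SE 0.29, adjusted p 0.391 by DESeq2). Ltb, the membrane-anchoring subunit of lymphotoxin, had a log2 fold change of −0.37 (SE 0.19), Tnf −0.42 (SE 0.24) and Tnfsf9, the 4-1BB ligand, −0.11 (SE 0.29), none of them called by DESeq2 with genotype alone (with the surrogate variable Ltb was called lower, −0.24, adjusted p 0.00478). Tnfsf18, Tnfsf15 and Cd70, the ligands of GITR, DR3 and CD27, had mean counts of 1, 7.8 and 0.3 and were not tested.

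**Figure D5:**
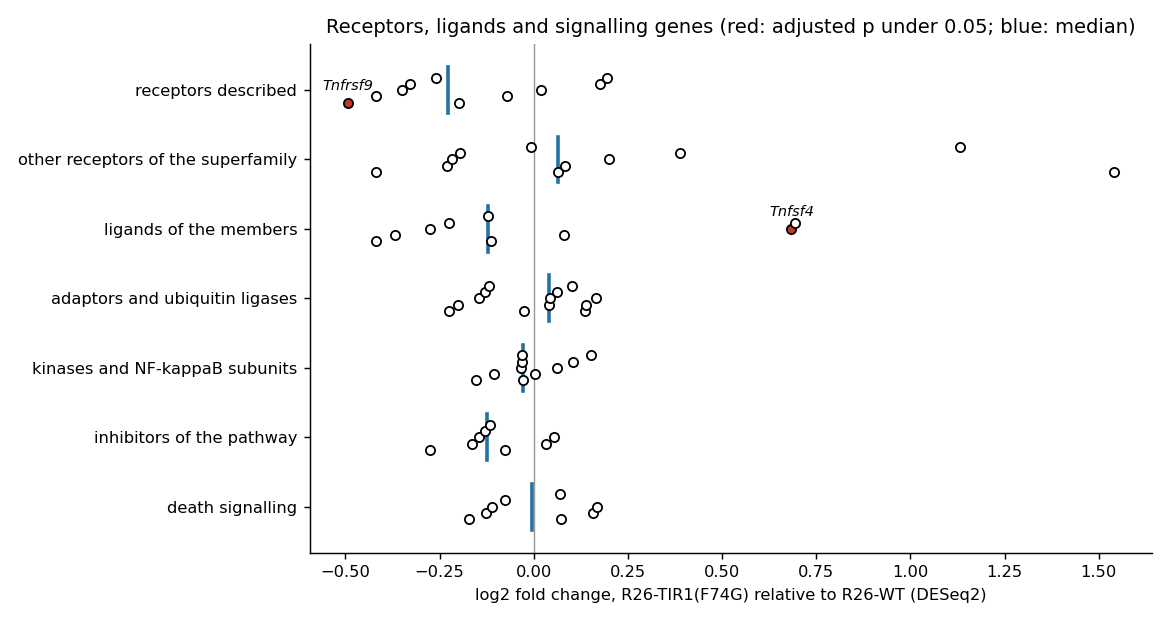
DESeq2 log2 fold change of each tested gene (circles) in the 10 receptors and in 6 lists of the pathway, with a blue bar at each list's median and red circles for an adjusted p under 0.05. With all 10 libraries and genotype alone the medians lie between −0.23 and 0.065, and the called genes are Tnfrsf9 and Tnfsf4.

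Of the genes that act downstream of the receptors, DESeq2 with genotype alone and all 10 libraries called none, and neither did edgeR or limma voom, but other fits did. Among 13 adaptors and ubiquitin ligases the median log2 fold change was 0.041 (−0.13 without the 3 libraries), and 2 had an unadjusted p under 0.05, Traf1 and Traf2, the adaptors that 4-1BB recruits. Traf1 had 17321, 16125, 17036 and 16387 normalized counts in R26-WT replicates 1 to 4 and 12984, 14603 and 15219 as the lowest, median and highest in R26-TIR1(F74G). As for Tnfrsf9, the groups did not overlap, but the difference was small, with means of 16717 ± 556 and 14297 ± 976 and a log2 fold change of −0.23 (SE 0.084) that did not pass the test (adjusted p 0.233 by DESeq2). Traf2 had 5165 ± 272 and 4492 ± 247 normalized counts (log2 fold change −0.20, SE 0.083, adjusted p 0.370 by DESeq2), or −0.13 without the 3 libraries, and the third by p was Rbck1, a subunit of the linear ubiquitin ligase (0.14, SE 0.096). With 1 surrogate variable DESeq2 called both Traf2 (−0.18, adjusted p 0.00627) and Traf1 (−0.22, adjusted p 0.00981) lower, and without the 3 libraries it called neither, but Traf6 (−0.61, adjusted p 0.0437). Traf6 was at 0.14 (SE 0.33) with all libraries and genotype alone, so that its sign changed.

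With all libraries, none of the 10 kinases and NF-kappaB subunits was called by DESeq2 with genotype alone, edgeR or limma voom, and none had an unadjusted DESeq2 p under 0.05. The 3 with the smallest p were Relb (log2 fold change −0.10, SE 0.076), Ikbkg (0.15, SE 0.23) and Rel (−0.15, SE 0.24). Rel was called lower with the surrogate variable (−0.30, adjusted p 0.00567 by DESeq2) and without the 3 libraries (−0.61, adjusted p 0.0369 by DESeq2), where all 10 genes of the list were below 0 with a median of −0.31, against −0.029 with all libraries. Of the 8 inhibitors of the pathway none was called by these 3 tools and none had an unadjusted DESeq2 p under 0.05, with Nfkbia, which encodes the NF-kappaB inhibitor IkappaB-alpha, at −0.28 (SE 0.14), Tnip1 at −0.13 (SE 0.094) and Otulin at −0.16 (SE 0.15). DESeq2 called Nfkbia (−0.20) and Tnip1 (−0.16) lower with the surrogate variable, and Tnfaip3 (−0.74) and Cyld (−0.53) without the 3 libraries. With all libraries and genotype alone, Tnfaip3 was at 0.055 (SE 0.36) and Cyld at 0.031 (SE 0.26), so that both changed sign. Of the 8 tested death signalling genes likewise none was called or had an unadjusted DESeq2 p under 0.05, with Ripk3 at 0.17 (SE 0.10) and Casp8 at −0.17 (SE 0.11), and with the surrogate variable DESeq2 called Ripk3 higher (0.20) and Casp8 lower (−0.13). Among the 18 other receptors of the superfamily, 11 were tested, none was called by the 3 tools, and 1 had an unadjusted p under 0.05. This was Tnfrsf19, at 9.32 ± 8.55 and 26.6 ± 7.05 normalized counts (log2 fold change 1.54, SE 0.53, adjusted p 0.141 by DESeq2), a level of few counts, and it was called without R26-WT replicate 2 (2.28, adjusted p 0.00227 by DESeq2). Tnfrsf23 (0.39, SE 0.25) and Tnfrsf12a (−0.22, SE 0.16) followed. Others that Treg cells expressed well, such as Tnfrsf13b (4186 ± 251 and 4168 ± 304 normalized counts) and Relt (3649 ± 267 and 3818 ± 286), had log2 fold changes of −0.0068 and 0.065.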

How the data were processed

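Treg cell RNA of varied integrity was amplified as cDNA before sequencing, with no molecular identifiers named in the labels, so counting error understates technical error. The authors deposited raw counts of read pairs per gene, 1 file per library, with no normalization. Per the file headers they were made with featureCounts 2.1.1 (unstranded, GENCODE M30, GRCm39, minimum mapping quality 30). For alignment the methods of the study name STAR and the submitters' processing notes Bowtie2. Read pairs that overlap several genes are left out.

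Genes whose mean count reached 10 were tested in R 4.3.3 with DESeq2 1.42.0 (Wald test, two-sided, with genotype alone in the design, after the study's methods). Single genes were also tested by exact permutation of log2(normalized count + 1) over the 210 arrangements of labels, and ratios on their log2 values. FPKM used the exon lengths in the files and library totals. Principal components used the 500 most variable genes after variance stabilization. Alternatives were edgeR 4.0.16 (quasi-likelihood), limma 3.58.1 (voom with quality weights), TMM factors, other filters, 1 surrogate variable (sva 3.50.0), removal of a gene length trend, and leaving out libraries. The models were tested on simulated data first. Libraries of one group differed by more than sampling noise (chi-square per degree of freedom 9.91 to 243 in 21 pairs). The labels do not say that libraries of a group came from separate mice, and p-values measure the spread between these libraries.

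The receptors, gene lists and tests were chosen with earlier results of these data known. Besides the 10 receptors, the genes named are, of each pathway list, those called and otherwise the 3 with the smallest unadjusted p (1 death signalling gene is not reported here), and for Tnfrsf4, Tnfrsf18 and Tnfrsf9 the 3 genes with the highest Pearson r. Ltb, Tnf, Tnfsf9, Tnfsf14, Tnfrsf13b, Relt, the untested ligands, the marker genes and genes called under an alternative alone were named after their values were seen.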

Additional observations from a re-analysis of the deposited data

How the results depend on the processing

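No paired analysis was possible because no replicate number occurs in both genotypes. The genes called numbered 284 with DESeq2 and 61 with edgeR, 80 with limma voom, 743 with 1 surrogate variable, 538 without R26-WT replicates 3 and 4 and R26-TIR1(F74G) replicate 7, and 187 to 346 when 1 library was left out (187 without R26-WT replicate 4). The number of the 10 receptors called was 1 in each leave-one-out fit, 0 with edgeR and with limma voom, 4 with the surrogate variable and 2 without the 3 libraries. Tnfrsf9 was lower under every alternative run, past the threshold in 16 of 18, the exceptions being edgeR (−0.50, adjusted p 0.0510) and limma voom (−0.47, adjusted p 0.0564). With the surrogate variable Tnfrsf4 (−0.26), Tnfrsf18 (−0.30) and Cd27 (−0.23) passed. Tnfrsf1b changed sign with it (−0.098), with the gene length trend removed (−0.0099), without the 3 libraries (−0.53), and within the leave-one-out range of −0.14 to 0.24 (without R26-WT replicate 3 or 4 or R26-TIR1(F74G) replicate 7). Tnfrsf25 (0.080) and Cd27 (0.0084) changed sign without the 3 libraries, as did the pathway genes Traf6 (−0.61), Tnfaip3 (−0.74) and Cyld (−0.53). Of the ligands, DESeq2 called 1, against 0 with edgeR, limma voom and without the 3 libraries, 2 with the surrogate variable and 0 to 1 in leave-one-out fits. With the surrogate variable 2 adaptors, 1 kinase or NF-kappaB subunit, 2 inhibitors and 2 death signalling genes were called, and without the 3 libraries 1, 1, 2 and 0. The other receptors of the superfamily gave 0 to 1 in leave-one-out fits. The causes were not tested. With 4 libraries against 6, the 95% intervals of Tnfrsf4, Tnfrsf18 and Cd27 each span a change as large as that of Tnfrsf9.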
